A study of Canis lupus familiaris with 9 samples.

Results

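Potassium, sodium and calcium channel genes were followed across 9 arrays of cultured dog cells. Members were the genes whose symbol in the platform's table belonged to the KCN potassium channels and their accessory subunits, the SCN sodium channels or the CACN calcium channels. They numbered 115 of 15947 named genes: 81 potassium, 10 sodium and 24 calcium channel genes. Where a gene had several probe sets, the one brightest on average across all arrays was taken. The groups were SKN (neural precursors derived from skin), Brain (neural precursors derived from brain tissue) and Fibroblast (skin fibroblasts), each with 3 arrays. All came from untreated primary cultures of tissue left over from surgery on dogs, for which the labels used here give no genotype, age or sex. SKN cells had begun as spheres in serum-free medium holding B-27, EGF and FGF, whereas Fibroblast cells were fed with serum. For Brain the medium is not given in the sources used here. Effects of medium and of cell type therefore cannot be told apart. The labels link no array to a dog or a culture. The p-values thus cover no more than the spread among these arrays, which may be technical.

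Potassium channels let potassium leave the cell and set the resting voltage and the end of the action potential. Voltage-gated sodium channels carry the upstroke, and voltage-gated calcium channels couple voltage to secretion, contraction and gene expression. The pores work with accessory subunits that alter their gating or carry them to the membrane. Neurons are the best known users, but glia, smooth muscle, fibroblasts and dividing precursors also express channel genes.

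Signals are log2 values, and a difference of 1 log2 unit is 2-fold. A gene was called where limma gave a Benjamini-Hochberg adjusted p under 0.05 over all 32205 probe sets. Errors of differences are standard errors (SE) of that fit, with n = 3 arrays a group, and errors of means are SDs. The file holds no detection calls, and a low signal is no proof that the transcript was missing. In cultures measured in bulk, fewer cells of a type and less RNA per cell cannot be told apart. Of the 115 channel genes, 98 had a mean signal below the median of all named genes (5.64). At least 4 arrays held exactly the same deposited value for 17 of the 115 channel genes (14.8%), against 8.31% of all named genes, and 0 of those 17 were called.

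The cultures were first set against cell type markers. Of 9 neural stem and progenitor markers, 1 was called higher in Brain than in Fibroblast, NES, and 8 were not called. SKN was called lower than Brain in 3 of them and lower than Fibroblast in 1, and higher in 0. NES, a filament protein of precursors, averaged 6.67 in SKN, 8.34 in Brain and 6.65 in Fibroblast. SOX2 read 4.89 to 5.57 in SKN, 7.36, 7.16 and 5.34 in Brain and 5.00 to 5.35 in Fibroblast. Of 8 Schwann cell and neural crest markers, 6 were called higher and 1 lower in Brain than in Fibroblast, with CDH19 at 10.79 to 11.20 in Brain and 2.14 to 5.86 in Fibroblast, and S100B not called. Of 8 oligodendrocyte lineage markers, 5 were higher, among them UGT8, and 1 lower, PDGFRA (-2.91 ± 0.43, adjusted p 0.00218), while the myelin gene MBP was not called. Of 8 astrocyte markers, 1 was higher (AQP4) and 2 lower (GJA1 and SLC1A3), and the filament GFAP read 5.03 or less in all 9 arrays. Neuronal markers were mixed: of 11, Brain was higher than Fibroblast in 1, MAP2 (5.29 ± 0.24, adjusted p 7.42e-06), and lower in 1, GAP43, SKN was higher than Fibroblast in 2, among them STMN2 (3.91 ± 0.49, 0.00514), and RBFOX3 read 4.47 or less in all 9 arrays. Of 7 microglia and leukocyte markers PTPRC read 2.46 or less in all arrays, and CD68 read 7.13 in Fibroblast 3. Of 10 fibroblast markers, 9 were lower in Brain than in Fibroblast, and 9 were higher in SKN than in Brain. Between SKN and Fibroblast 1 of them was called, DPT, higher in SKN (2.79 ± 0.36, adjusted p 0.00604), and 9 were not. Of 10 smooth muscle and pericyte markers, 5, KCNJ8 among them, were higher in SKN than in Brain. Of the same list 5 were lower in Brain than in Fibroblast, and 0 were called between SKN and Fibroblast. Within their groups 3 arrays stood apart on such lists. In Brain 3 the 10 fibroblast markers averaged 6.37 and 10 smooth muscle and pericyte markers (KCNJ8 among them) 5.87, against at most 4.75 and 4.21 in the other Brain arrays. In Fibroblast 1 the Schwann cell and neural crest markers averaged 5.77, against 4.73 and 4.50 in the other Fibroblast arrays. SKN 1 was higher than SKN 2 and 3 in proliferation genes. The mean of 8 proliferation genes was 7.12, 3.56 and 4.23 in the 3 SKN arrays, 8.70, 7.40 and 8.20 in the Brain arrays and 5.85, 4.20 and 3.92 in the Fibroblast arrays.

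The counts of called channel genes are given beside the same share over all named genes. Between SKN and Brain, 18 of 115 were called (15.7%, against 22.6% of all named genes). Of these, 9 were higher in SKN (10.9% of all genes were) and 9 lower (11.7% of all genes were). Between SKN and Fibroblast 5 were called (4.35%, against 4.55% of all genes), 3 higher (2.45% of all genes were) and 2 lower (2.10%). Between Brain and Fibroblast 26 were called (22.6%, against 27.0% of all genes), 12 higher in Brain (13.8% of all genes were) and 14 lower (13.2%). Calls of at least 2-fold numbered 16 (13.9%, against 12.2% of all genes), 4 (3.48%, against 2.87%) and 16 (13.9%, against 13.4%) in that order. The shares for calls of at least 2-fold, and that of any size between SKN and Fibroblast, lay near those of all genes. For calls of any size in the comparisons with Brain they were lower than those of all genes. These differences were not tested, and the counts are no result about channel genes as a set. The median difference over the 115 genes was 0.01 for SKN minus Brain, -0.09 for SKN minus Fibroblast and -0.13 for Brain minus Fibroblast, beside 0.01, -0.04 and -0.06 over all genes. The 3 comparisons share arrays, so the calls of a gene in them are not independent.

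**Figure D1:**
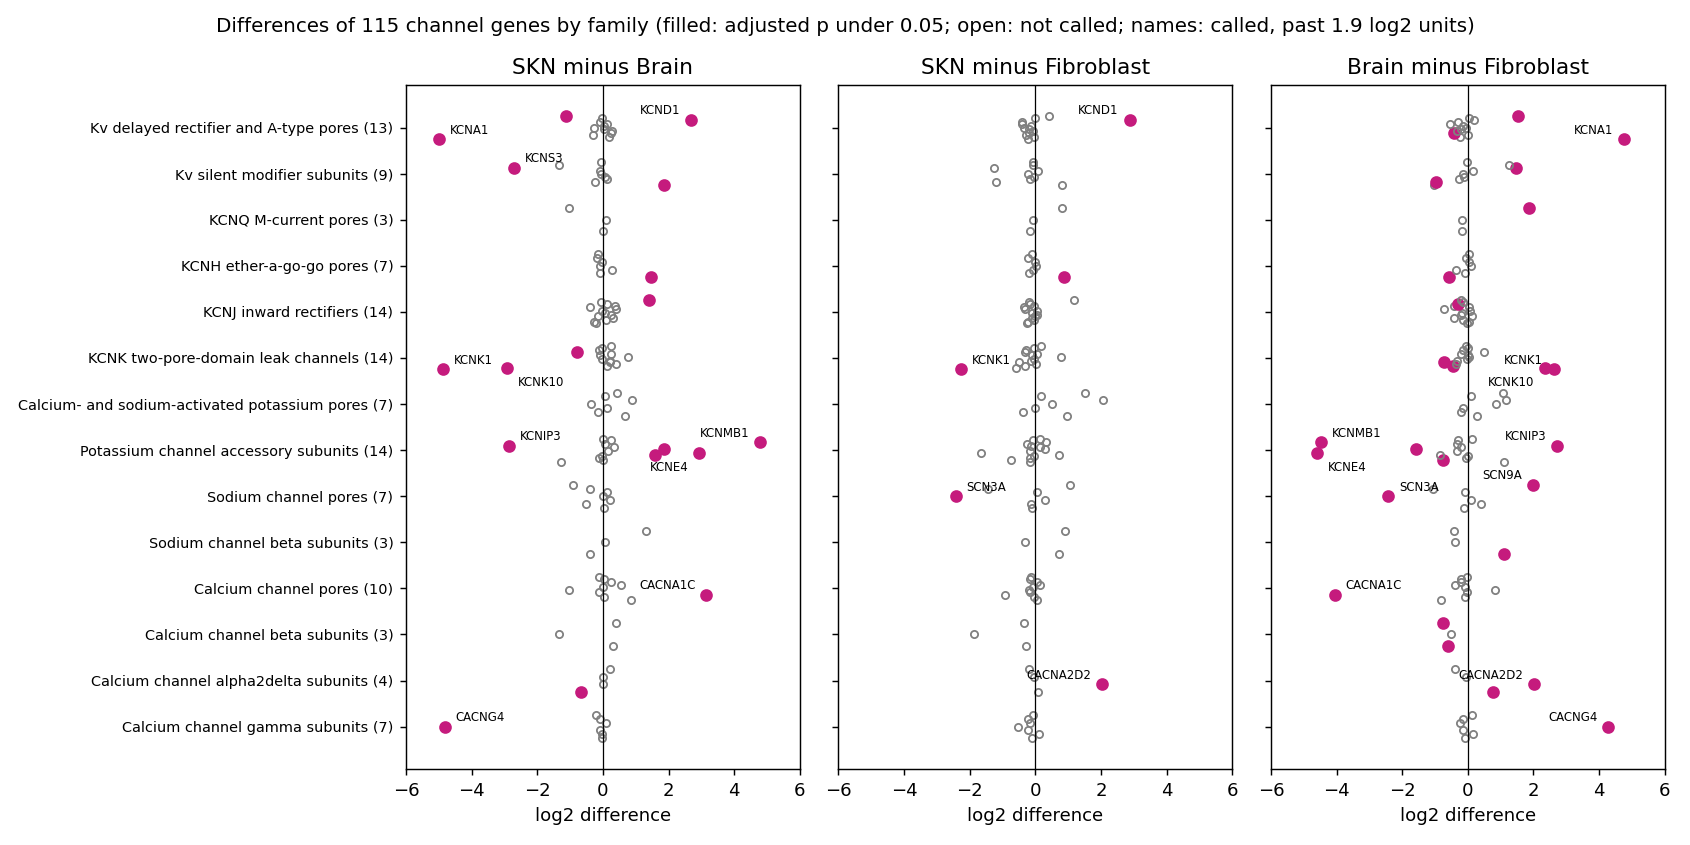
Each point is 1 of 115 channel genes, placed by its log2 difference (x axis) in the comparison named above the panel and by its family (rows, with the number of genes). Filled points are called genes and open points are not called. KCNA1, KCNK1, KCNMB1, CACNA1C and CACNG4 lie more than 3 log2 units from 0 in at least 1 panel.

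Of the 115 genes, 31 were called in at least 1 comparison and 84 in none. Of the 31, 7 genes were higher in Brain than in SKN and in Fibroblast without a call between SKN and Fibroblast (KCNA1, KCND3, KCNS3, KCNK10, KCNIP3, CACNA2D1 and CACNG4), and 4 were lower in Brain than in both (KCNMB1, KCNE4, KCNIP1 and CACNA1C). KCND1 and KCNH1 were higher in SKN than in both other cultures, and KCNK1 was lower in SKN than in both. A further 11 were called in Brain against Fibroblast alone, 3 higher and 8 lower in Brain. The same patterns were not counted over all named genes, so these counts describe single genes and are no result about channel genes as a set. Without Fibroblast 1 and Brain 3, 14 of the 49 calls ended. They were the calls between SKN and Brain of KCNF1, KCNJ8 and KCNK5, those between SKN and Fibroblast of KCNH1, KCNK1 and CACNA2D2, and those between Brain and Fibroblast of KCNA4, KCNS3, KCNQ5, KCNH1, KCNJ5, KCNAB2, CACNB1 and CACNB3. Their adjusted p then lay between 0.0638 and 0.205, and no difference changed sign. Without SKN 1, 7 calls ended (adjusted p 0.0535 to 0.083), those between SKN and Fibroblast of KCNK1 and CACNA2D2 and those between Brain and Fibroblast of KCNA4, KCNG1, KCNJ5, KCNK12 and CACNB3. The differences between Brain and Fibroblast do not depend on SKN 1, and only their errors and p-values changed. Each other removal of 1 array ended 8 to 13 calls, so such losses were not particular to the arrays that stood apart.

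**Figure D2:**
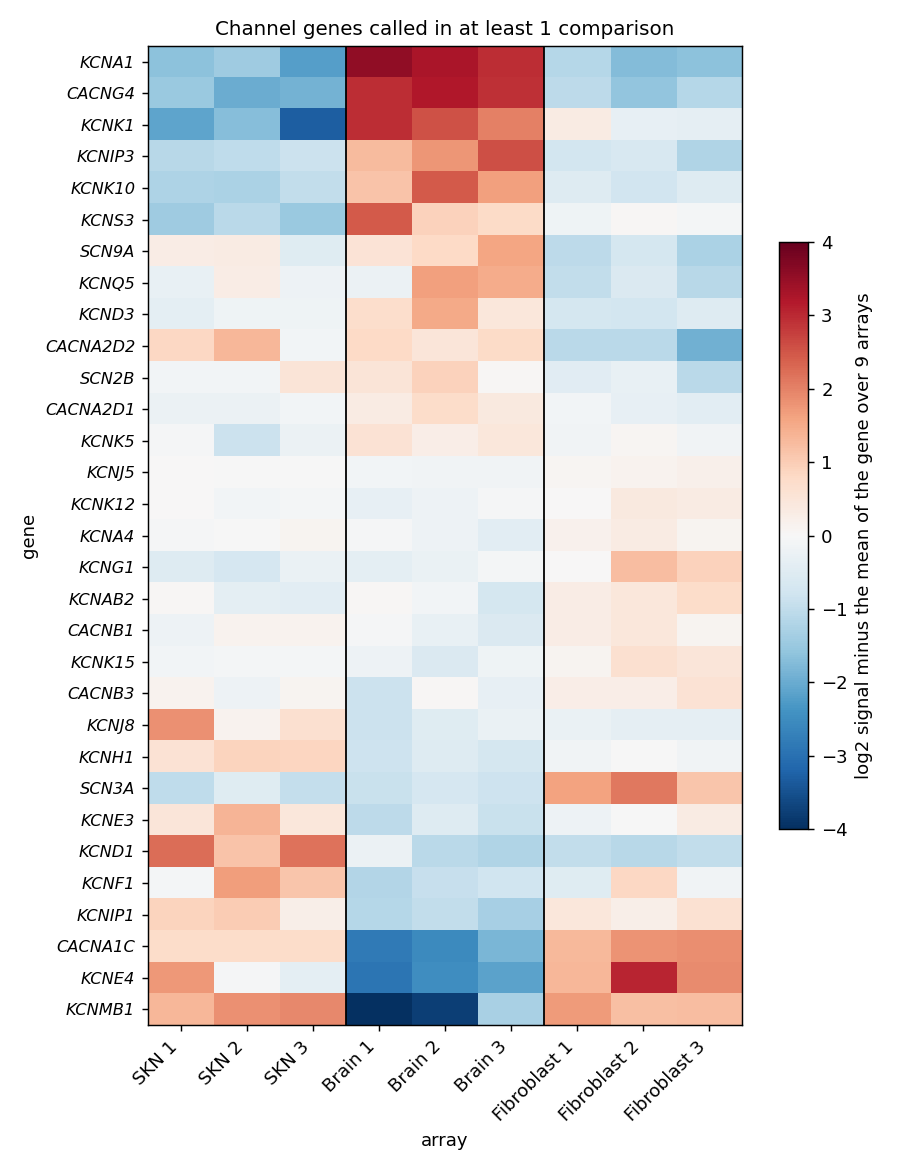
Colour gives the log2 signal minus the gene's own mean over the 9 arrays, for the 31 channel genes called in at least 1 comparison (rows, ordered by their Brain mean) in each array (columns). KCNA1, CACNG4 and KCNK1 are high in all 3 Brain arrays, KCNMB1, KCNE4 and CACNA1C are low there, SCN3A is high in the 3 Fibroblast arrays and KCND1 in the 3 SKN arrays.

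Among the 13 pores of the Shaker, Shab, Shaw and Shal families, which carry delayed rectifier and A-type potassium currents, KCNA1 had the largest differences. KCNA1 forms an axonal channel that limits repetitive firing. Its signal was 3.56, 3.77 and 2.98 in SKN, 8.73, 8.46 and 8.15 in Brain and 4.05, 3.44 and 3.53 in Fibroblast. All 3 Brain arrays lay more than 4 log2 units above every other array. The difference was -5.01 ± 0.25 for SKN minus Brain (adjusted p 9.95e-06) and 4.77 ± 0.25 for Brain minus Fibroblast (1.66e-05), while SKN minus Fibroblast was -0.24 ± 0.25 (0.693). The Shaker gene KCNA5 neighbours KCNA1 in the dog reference annotation (UU_Cfam_GSD_1.0), and it read 4.87 to 5.26 in Brain and 5.26 to 5.63 in Fibroblast (-0.34, adjusted p 0.15).

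The Shal pores KCND1, KCND2 and KCND3 carry fast A-type currents, and each had another profile. KCND1 read 7.65, 6.55 and 7.59 in SKN, 5.19, 4.34 and 4.20 in Brain and 4.43, 4.31 and 4.44 in Fibroblast. It was higher in SKN than in Brain by 2.68 ± 0.34 (adjusted p 0.00106) and than in Fibroblast by 2.87 ± 0.34 (0.00388), and kept both calls through each removal of 1 array. KCND3 read 4.27 to 4.49 in SKN, 5.37, 6.17 and 5.12 in Brain and 3.93 to 4.14 in Fibroblast. It was lower in SKN than in Brain (-1.13 ± 0.24, adjusted p 0.0141) and higher in Brain than in Fibroblast (1.54 ± 0.24, 0.00296). KCND2 lay between 4.40 and 4.52 in all 9 arrays. Of the remaining pores of these families, KCNA4, an A-type pore, was called lower in Brain than in Fibroblast (-0.43 ± 0.12, adjusted p 0.0387), a call that ended in 8 of the 9 removals of 1 array (up to 0.118, without Brain 3). The other 9 differed by at most 0.54 in any comparison on the probe sets used. A second probe set of KCNC2, a Shaw pore, read -1.18 ± 0.37 for SKN minus Brain (adjusted p 0.0646) and 0.99 ± 0.37 for Brain minus Fibroblast (0.0974), where the probe set used gave 0.12 and -0.54.

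KCNF1, KCNG1, KCNS3 and their relatives are silent subunits, which form no channel alone and modify Shab pores. KCNS3 read 3.95, 4.28 and 3.88 in SKN, 7.82, 6.29 and 6.12 in Brain and 5.19, 5.41 and 5.26 in Fibroblast. The order Brain, Fibroblast, SKN held for every array, with calls for SKN minus Brain (-2.71 ± 0.39, adjusted p 0.00222) and Brain minus Fibroblast (1.46 ± 0.39, 0.0321) and none for SKN minus Fibroblast (-1.25 ± 0.39, 0.145). The call between Brain and Fibroblast ended without Fibroblast 1 (0.0851), 2 (0.0727) or 3 (0.084). KCNF1 was higher in SKN than in Brain (1.85 ± 0.46, adjusted p 0.0261), at 4.96, 6.70 and 6.14 against 3.88, 4.11 and 4.25. That call ended without any Brain array (0.0591 to 0.0756), SKN 2 (0.0794) or SKN 3 (0.0894). KCNG1 was lower in Brain than in Fibroblast (-0.97 ± 0.28, adjusted p 0.0419), at 5.74 to 6.08 against 6.17, 7.36 and 7.06, and lost the call in 8 removals (up to 0.121, without Fibroblast 3). KCNV1 read 3.98, 5.70 and 4.58 in Brain and 3.05 to 3.70 in both other groups, and was not called (adjusted p 0.0561 for SKN minus Brain and 0.0574 for Brain minus Fibroblast).

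KCNQ5 belongs to the pores of the M-current, a slow potassium current that dampens excitability. It was called higher in Brain than in Fibroblast (1.86 ± 0.45, adjusted p 0.0213), with 5.48, 7.35 and 7.19 against 4.72, 5.12 and 4.60, and read 5.41, 6.00 and 5.49 in SKN. Brain 1 lay within the SKN range. The call ended without Fibroblast 1 (0.0602), Fibroblast 3 (0.0685), Brain 2 (0.0664) or Brain 3 (0.0719). A second probe set of KCNQ5 gave a larger difference for Brain minus Fibroblast (3.29 ± 0.78, adjusted p 0.019). KCNQ1 and KCNQ3, the other M-current family members measured, differed by at most 0.17 in any comparison.

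KCNH1, an ether-a-go-go pore known from neurons and from dividing and tumour cells, was called in all 3 comparisons. Its signal was 5.38, 5.67 and 5.64 in SKN, 3.96, 4.27 and 4.08 in Brain and 4.64, 4.77 and 4.64 in Fibroblast. No 2 groups overlapped. SKN was higher than Brain by 1.46 ± 0.12 (adjusted p 1.32e-04) and than Fibroblast by 0.88 ± 0.12 (0.00865), and Brain was lower than Fibroblast (-0.58 ± 0.12, 0.0122). A second KCNH1 probe set gave differences of 3.01 ± 0.17 for SKN minus Brain (1.81e-05), 2.55 ± 0.17 for SKN minus Fibroblast (2.55e-04) and -0.46 ± 0.17 for Brain minus Fibroblast (0.0939), so the size against SKN depended on the probe set and the third call was not shared. The other 6 KCNH genes were called in no comparison and differed by at most 0.35.

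**Figure D3:**
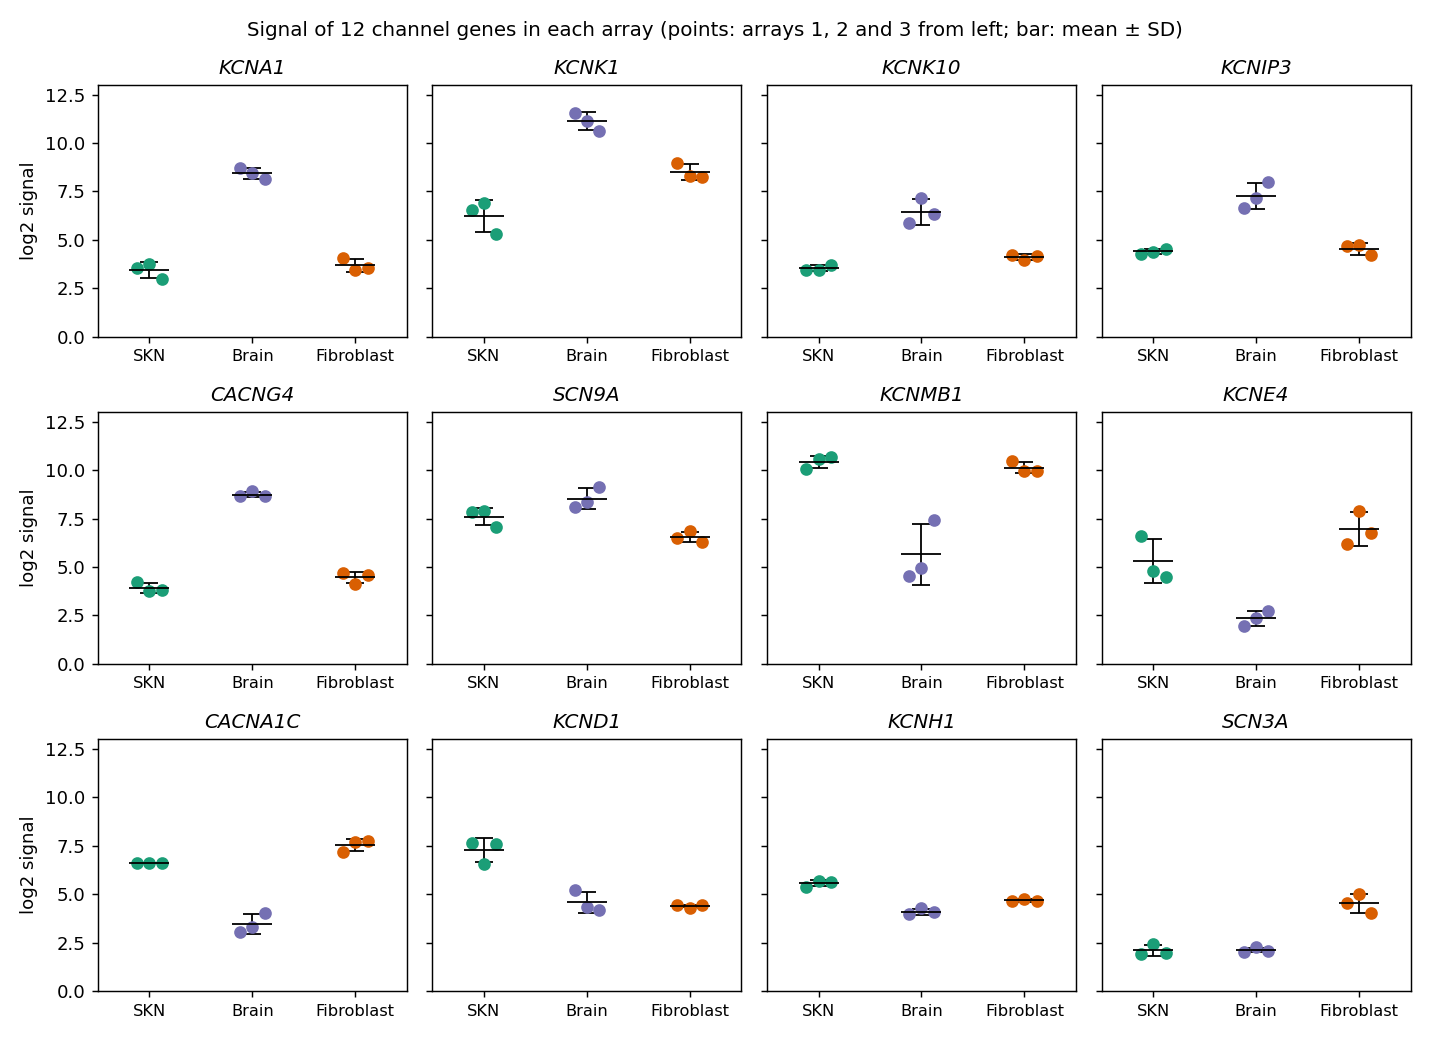
Log2 signal (y axis) of 12 channel genes in SKN, Brain and Fibroblast (x axis). Points are arrays 1, 2 and 3 of each group from left to right, the long bar is the mean and the whiskers are 1 SD. KCNA1, KCNK1, KCNK10, KCNIP3, CACNG4 and SCN9A are highest in Brain, KCNMB1, KCNE4 and CACNA1C lowest in Brain, KCND1 and KCNH1 highest in SKN and SCN3A highest in Fibroblast.

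The KCNK genes encode leak channels with tandem pore domains, which hold the resting voltage. KCNK1, a weak leak channel known from brain and kidney, read 6.52, 6.90 and 5.31 in SKN, 11.56, 11.16 and 10.63 in Brain and 8.96, 8.28 and 8.26 in Fibroblast. The groups were fully separated in the order Brain, Fibroblast, SKN. SKN was lower than Brain (-4.87 ± 0.42, adjusted p 1.39e-04) and than Fibroblast (-2.26 ± 0.42, 0.0248), and Brain was higher than Fibroblast by 2.62 ± 0.42 (0.00319). The call between SKN and Fibroblast ended without Fibroblast 1 (0.074), 2 (0.0665) or 3 (0.0717) or SKN 1 (0.0632). KCNK10, a stretch- and lipid-sensitive leak channel, read 3.46, 3.42 and 3.71 in SKN, 5.85, 7.16 and 6.35 in Brain and 4.19, 3.94 and 4.19 in Fibroblast. It was lower in SKN than in Brain (-2.92 ± 0.29, adjusted p 2.98e-04) and higher in Brain than in Fibroblast (2.34 ± 0.29, 9.22e-04). KCNK2, its close relative, was called in no comparison and read 3.42, 5.34 and 4.47 in SKN, 3.47 to 3.77 in Brain and 3.19 to 4.13 in Fibroblast.

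Smaller KCNK differences were called for 3 further genes. KCNK5, a leak channel opened by alkaline pH, was lower in SKN than in Brain (-0.80 ± 0.20, adjusted p 0.0301), a call that ended without Brain 1 (0.0873), Brain 3 (0.0834) or SKN 3 (0.0588). KCNK15 was lower in Brain than in Fibroblast (-0.73 ± 0.16, adjusted p 0.0149), lost only without Fibroblast 3 (0.0505) among the 9 removals. KCNK12 was lower as well (-0.44 ± 0.13, 0.0444) and lost its call in 7 removals (up to 0.125, without Fibroblast 2). The other 9 of 14 KCNK genes were called in no comparison.

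Of the 14 KCNJ inward rectifiers, which pass potassium most easily near the resting voltage, KCNJ8 was called higher in SKN than in Brain (1.39 ± 0.37, adjusted p 0.0361). KCNJ8 forms the pore of an ATP-sensitive channel of vessel walls together with the sulfonylurea receptor ABCC9. It read 4.94, 3.26 and 3.76 in SKN, 2.27, 2.62 and 2.87 in Brain and 2.87, 2.76 and 2.75 in Fibroblast, and its call ended in 7 of 9 removals (up to 0.106, without Brain 1). ABCC9, no member by the symbol rule, read 7.98, 5.52 and 6.04 in SKN, 2.53, 2.35 and 3.02 in Brain and 4.48, 3.68 and 2.85 in Fibroblast. Its difference was 3.88 ± 0.63 for SKN minus Brain (adjusted p 0.00384) and 2.84 ± 0.63 for SKN minus Fibroblast (0.0508). KCNJ8 and ABCC9 were both highest in SKN 1, the SKN array with the highest proliferation mean. Every Brain array had a higher proliferation mean (7.40 to 8.70) and read lower than any SKN array for both genes. A link with proliferation was not tested. Without SKN 1 the KCNJ8 difference was 0.92 ± 0.21 and still called (0.0247). KCNJ5, a G protein-gated pore, was called lower in Brain than in Fibroblast (-0.29 ± 0.08, adjusted p 0.0443) and lost the call in all 9 removals (0.0625 to 0.111). KCNJ10, the inward rectifier of astrocytes and oligodendrocytes, read 4.47, 4.41 and 5.32 in Brain and 4.23 to 4.91 elsewhere, with no call.

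**Figure D4:**
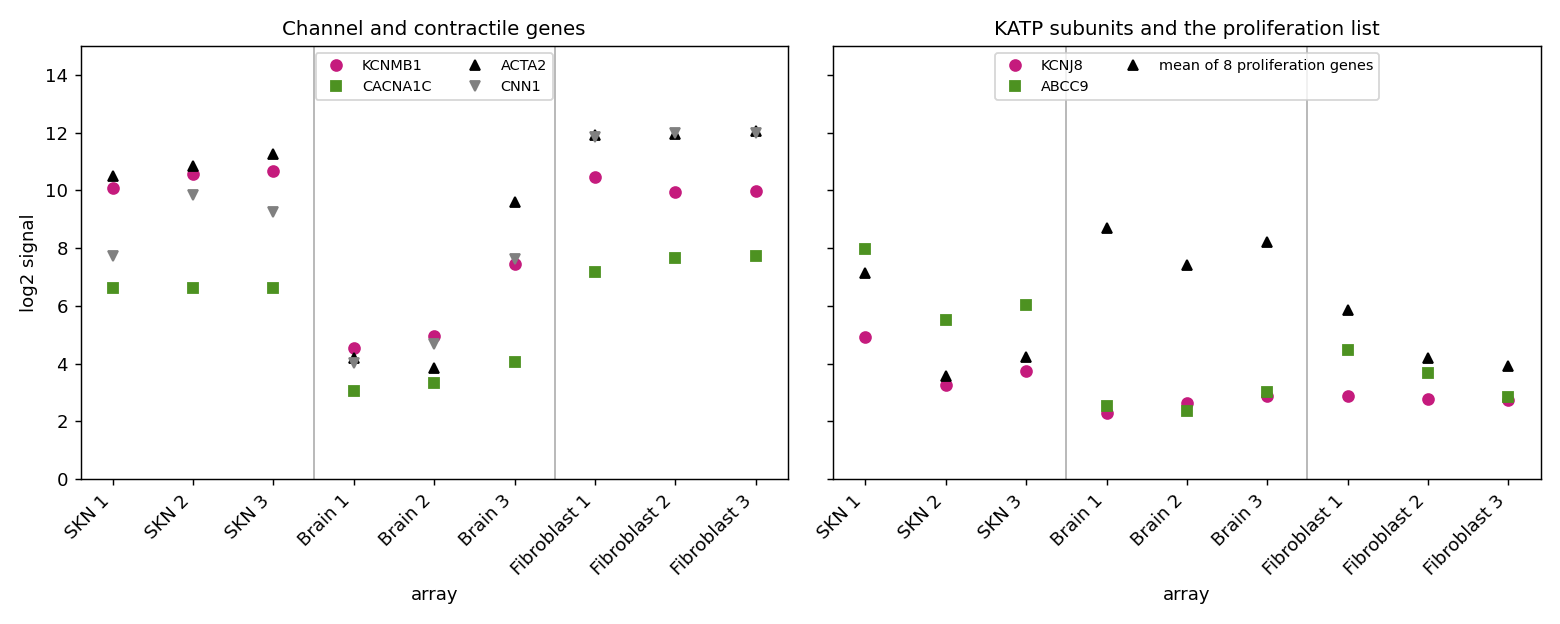
Log2 signal (y axis) in each of the 9 arrays (x axis). In the left panel KCNMB1 and the contractile genes ACTA2 and CNN1 read higher in Brain 3 than in the other Brain arrays, and CACNA1C reads 4.05 there. In the right panel KCNJ8 and ABCC9 are highest in SKN 1. The mean of 8 proliferation genes is higher in every Brain array than in any SKN array.

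None of the 7 pores gated by calcium or sodium was called by limma in any comparison. Unadjusted p of that fit was under 0.05 for 0 of them in SKN against Brain, 3 in SKN against Fibroblast and 3 in Brain against Fibroblast. The share of all named genes at that unadjusted threshold was not counted, so these counts are no result about the family. KCNN4, the intermediate-conductance calcium-activated channel of blood cells and proliferating cells, read 6.99, 8.65 and 6.98 in SKN, 6.91, 6.33 and 6.75 in Brain and 6.00, 5.66 and 4.81 in Fibroblast. The SKN and Fibroblast arrays did not overlap, at 2.05 ± 0.47 for SKN minus Fibroblast (adjusted p 0.0587). KCNT2, a sodium-activated pore, read 4.65, 3.55 and 4.85 in SKN, 4.19, 4.39 and 3.17 in Brain and 3.07, 2.87 and 2.59 in Fibroblast (1.51 ± 0.40 for SKN minus Fibroblast, 0.0911). KCNMA1, the large-conductance BK pore, read 3.71, 5.16 and 4.27 in SKN, 3.12, 4.94 and 3.01 in Brain and 3.08, 4.09 and 3.05 in Fibroblast. Array 2 was the highest of each group for KCNMA1, and no group was separated from another.

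Of the 14 accessory subunits of potassium channels, 4 were higher and 1 lower in SKN than in Brain (22.6% of all genes were called there), and 1 was higher and 4 lower in Brain than in Fibroblast (27.0% of all genes). KCNMB1, the BK beta subunit known from smooth muscle, had the widest spread. It read 10.07, 10.55 and 10.67 in SKN, 4.54, 4.97 and 7.45 in Brain and 10.45, 9.94 and 9.97 in Fibroblast. SKN was higher than Brain by 4.78 ± 0.65 (adjusted p 0.00162), Brain was lower than Fibroblast (-4.47 ± 0.65, 0.0021), and SKN minus Fibroblast was 0.31 ± 0.65 (0.857). Brain 3 was well above the other Brain arrays, and ACTA2, smooth muscle actin, read 9.59 there against 4.19 and 3.85, and CNN1, calponin, 7.62 against 4.01 and 4.69. Not all of the 10 smooth muscle and pericyte markers did so: TAGLN read 9.36 in Brain 1 and 9.43 in Brain 3, DES was lowest in Brain 3 (3.49), and MYH11 read 4.02 or less in all 9 arrays. The part of such cells in the KCNMB1 signal was not tested. Without Brain 3 both calls of KCNMB1 held (adjusted p 1.60e-05 for SKN minus Brain and 2.29e-05 for Brain minus Fibroblast). The signal of the BK pore gene KCNMA1, given above, did not separate these groups.

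KCNE4 and KCNE3 encode small single-span subunits that alter the gating of KCNQ and other pores. KCNE4 read 6.58, 4.82 and 4.47 in SKN, 1.95, 2.39 and 2.72 in Brain and 6.18, 7.90 and 6.74 in Fibroblast. It was higher in SKN than in Brain by 2.94 ± 0.60 (adjusted p 0.0111) and lower in Brain than in Fibroblast (-4.59 ± 0.60, 0.0012). SKN 1 lay within the Fibroblast range and the other SKN arrays below it, so SKN minus Fibroblast was -1.65 ± 0.60 (0.203). KCNE3 read 4.39, 5.26 and 4.35 in SKN, 2.85, 3.37 and 3.01 in Brain and 3.70, 3.87 and 4.23 in Fibroblast, and was called higher in SKN than in Brain (1.59 ± 0.27, 0.00462).

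KCNIP proteins are calcium-binding partners of the Shal pores, and KCNIP3 also acts as a calcium-regulated transcriptional repressor. KCNIP3 read 4.29, 4.38 and 4.54 in SKN, 6.67, 7.16 and 7.98 in Brain and 4.67, 4.75 and 4.19 in Fibroblast. It was lower in SKN than in Brain (-2.86 ± 0.30, adjusted p 4.37e-04) and higher in Brain than in Fibroblast by 2.73 ± 0.30 (5.78e-04). KCNIP1 went the other way, at 4.96, 5.09 and 4.31 in SKN, 2.92, 3.08 and 2.75 in Brain and 4.53, 4.31 and 4.66 in Fibroblast. Its differences were 1.87 ± 0.21 for SKN minus Brain (5.34e-04) and -1.59 ± 0.21 for Brain minus Fibroblast (0.00122). KCNIP1 and KCNMB1 are neighbours in the dog reference annotation and were both low in Brain. In Brain 3 KCNMB1 was the highest of the Brain arrays and KCNIP1 the lowest, at 2.75 beside 2.92 and 3.08. A link between these neighbours was not tested. Of the beta subunits of Shaker pores, KCNAB2 was called lower in Brain than in Fibroblast (-0.76 ± 0.22, adjusted p 0.0403), a call lost in 7 removals (up to 0.122, without Fibroblast 3). KCNAB1 was not called, at 2.76, 3.68 and 4.90 in Brain and 2.43 to 2.86 in the other arrays.

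Of the 7 sodium channel pores, 2 were called between Brain and Fibroblast (27.0% of all genes were). Between SKN and Fibroblast 1 of these was called (4.55% of all genes were). SCN3A, a pore of embryonic brain, read 1.92, 2.44 and 1.97 in SKN, 2.03, 2.25 and 2.08 in Brain and 4.54, 5.03 and 4.05 in Fibroblast. It was the fibroblasts that stood apart, with -2.43 ± 0.25 for SKN minus Fibroblast (adjusted p 0.00188) and -2.42 ± 0.25 for Brain minus Fibroblast (3.74e-04). Both SCN3A calls held in each removal of 1 array. SCN9A, best known from pain-sensing neurons, read 7.85, 7.90 and 7.07 in SKN, 8.12, 8.35 and 9.13 in Brain and 6.51, 6.85 and 6.31 in Fibroblast. Every array of Brain lay above every array of SKN, and every SKN array above every Fibroblast array, but the call was limited to Brain minus Fibroblast (1.98 ± 0.31, 0.00295). For SKN the adjusted p was 0.0817 against Brain (-0.93 ± 0.31) and 0.122 against Fibroblast (1.05 ± 0.31).

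SCN8A, the pore of nodes of Ranvier, was not called, at 4.30, 3.26 and 3.96 in SKN, 4.22, 4.16 and 4.29 in Brain and 5.62, 4.39 and 5.82 in Fibroblast (adjusted p 0.0906 for SKN minus Fibroblast and 0.0886 for Brain minus Fibroblast). SCN1A and SCN2A, major pores of central neurons, read 3.40 or less in all 9 arrays. Beta subunits anchor and tune the pores. SCN2B was called higher in Brain than in Fibroblast (1.10 ± 0.29, adjusted p 0.0296), at 6.16, 6.58 and 5.68 against 5.20, 5.34 and 4.58, and this call ended without Fibroblast 1 (0.055), Fibroblast 3 (0.0897), Brain 1 (0.0729) or Brain 2 (0.0901). SCN4B, its neighbour in the reference annotation, read 6.61, 7.32 and 7.72 in SKN, 5.23, 6.80 and 5.65 in Brain and 6.40, 6.40 and 6.13 in Fibroblast, and was not called (adjusted p 0.0618 for SKN minus Brain).

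Of the 10 calcium channel pores, CACNA1C alone was called, between SKN and Brain (22.6% of all genes were) and between Brain and Fibroblast (27.0%). It forms the L-type channel of heart and smooth muscle and is also found in neurons and fibroblasts. Its signal was 6.62, 6.61 and 6.62 in SKN, 3.05, 3.31 and 4.05 in Brain and 7.17, 7.67 and 7.73 in Fibroblast. SKN was higher than Brain by 3.14 ± 0.25 (adjusted p 9.89e-05) and Brain was lower than Fibroblast (-4.05 ± 0.25, 3.62e-05). All SKN arrays were below all Fibroblast arrays, without a call (-0.91 ± 0.25, 0.103). Brain 3 was again the highest of the Brain arrays, and both calls of CACNA1C held without it. CACNA1A, the pore of fast transmitter release, read 6.02 to 6.73 in SKN, 6.39, 6.74 and 3.50 in Brain and 6.15 to 6.47 in Fibroblast, so that 1 Brain array alone stood apart. The neuronal and T-type pores CACNA1B, CACNA1G, CACNA1H and CACNA1I were called in no comparison.

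The alpha2delta subunits, which bring calcium channels to the cell surface, had calls in 2 of 4 genes. Both were called between Brain and Fibroblast (27.0% of all genes were), and 1 each in SKN against Brain (22.6%) and SKN against Fibroblast (4.55%). CACNA2D2 read 7.54, 8.04 and 6.59 in SKN, 7.50, 7.18 and 7.48 in Brain and 5.65, 5.65 and 4.79 in Fibroblast. Both precursor cultures were above Fibroblast, by 2.03 ± 0.37 for SKN (adjusted p 0.0234) and 2.03 ± 0.37 for Brain (0.00603), and SKN minus Brain was 0.00 ± 0.37 (0.999). The call of CACNA2D2 between SKN and Fibroblast ended without Fibroblast 2 (0.0561), Fibroblast 3 (0.0807), SKN 1 (0.083) or SKN 2 (0.0555). CACNA2D1, a target of gabapentin, read 7.77, 7.75 and 7.89 in SKN, 8.33, 8.72 and 8.38 in Brain and 7.89, 7.67 and 7.58 in Fibroblast. The shift was small but separated, at -0.67 ± 0.14 for SKN minus Brain (0.0108) and 0.76 ± 0.14 for Brain minus Fibroblast (0.00539), and a second probe set gave -0.89 ± 0.19 (0.0147) and 0.91 ± 0.19 (0.0114). CACNA2D3 and CACNA2D4 were not called.

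Beta subunits bind calcium channel pores inside the cell. CACNB1 (-0.60 ± 0.17, adjusted p 0.038) and CACNB3 (-0.75 ± 0.22, 0.0445) were called lower in Brain than in Fibroblast. These calls ended in 6 removals for CACNB1 (up to 0.114, without Fibroblast 2) and in 8 for CACNB3 (up to 0.129, without Fibroblast 3). CACNB2 read 3.41, 4.20 and 3.25 in SKN, 5.41, 4.97 and 4.53 in Brain and 4.56, 5.62 and 6.26 in Fibroblast. Its SKN arrays were below all others, yet the differences of -1.35 ± 0.44 for SKN minus Brain and -1.86 ± 0.44 for SKN minus Fibroblast were not called (0.0753 and 0.0631).

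CACNG4 is a transmembrane partner of AMPA-type glutamate receptors, which it carries to synapses, and is known in oligodendrocyte precursors as well as neurons. It read 4.21, 3.73 and 3.83 in SKN, 8.67, 8.92 and 8.64 in Brain and 4.67, 4.13 and 4.58 in Fibroblast. The Brain arrays lay close together and far above every other array. The difference was -4.82 ± 0.18 for SKN minus Brain (adjusted p 2.06e-06) and 4.28 ± 0.18 for Brain minus Fibroblast (5.99e-06). CACNG1 and CACNG5, the neighbours of CACNG4 in the reference annotation, read 2.36 to 3.05 and 3.08 to 3.80 in all 9 arrays. None of the other 6 gamma subunits was called, and their differences were 0.25 at most.

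Of 58 listed channels and channel partners outside the KCN, SCN and CACN names, 56 were measured. SKN was higher than Brain in 7 and lower in 9, SKN was higher than Fibroblast in 2 and lower in 4, and Brain was higher than Fibroblast in 11 and lower in 13. These are 28.6%, 10.7% and 42.9% of the 56 genes, against 22.6%, 4.55% and 27.0% of all genes, and the differences were not tested. RYR2, the ryanodine receptor of heart and brain, averaged 2.46 ± 0.04 in SKN, 6.21 ± 0.53 in Brain and 2.59 ± 0.07 in Fibroblast (-3.75 ± 0.23 for SKN minus Brain, adjusted p 2.46e-05, and 3.62 ± 0.23 for Brain minus Fibroblast, 3.93e-05). Of the other ryanodine receptors, RYR3 was called as well (-1.45 ± 0.20 for SKN minus Brain, 0.00172, and 0.69 ± 0.20 for Brain minus Fibroblast, 0.0427) and RYR1 in no comparison. The receptors of inositol trisphosphate differed among themselves. ITPR1 was lower in Brain than in Fibroblast (-2.11 ± 0.29, 0.00148) and lower in SKN than in Fibroblast (-1.89 ± 0.29, 0.011). ITPR2 was lower in Brain than in Fibroblast (-1.57 ± 0.19, 7.55e-04) and higher in SKN than in Brain (0.92 ± 0.19, 0.0109). ITPR3 was higher in Brain than in Fibroblast by 3.10 ± 0.48 (0.00272). TRPV2, a cation channel, and HVCN1, a proton channel, were lower in Brain than in Fibroblast (-3.44 ± 0.20, 2.50e-05, and -1.97 ± 0.26, 0.0014). Both were also higher in SKN than in Brain (2.93 ± 0.20, 4.09e-05, and 2.23 ± 0.26, 7.69e-04). TRPC4, a receptor-operated cation channel, was lower than in Fibroblast in SKN (-4.16 ± 0.72, 0.0193) and in Brain (-2.98 ± 0.72, 0.0204). ANK3, the ankyrin that anchors sodium and KCNQ channels to the axon, was lower in SKN than in Brain (-2.24 ± 0.32, 0.00192) and higher in Brain than in Fibroblast by 1.99 ± 0.32 (0.00312). REST, a repressor of many neuronal channel genes, was called in no comparison and read 7.97 to 8.26 in all 9 arrays.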

How the data were processed

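RNA of 9 samples, 3 each of SKN, Brain and Fibroblast, was hybridised to Affymetrix arrays, 1 array a sample. The labels do not say whether the 3 samples of a group were separate cultures. The authors deposited 1 table of 32205 probe sets with values taken as log2 signals. Per the submitters' processing notes, the tools were MAS5, RMA and Partek, without versions or stated roles. A log2 base was inferred from values of 0.561 to 13.47 and array medians of 4.715 to 4.786. The number of arrays limits the precision. Symbols came from the platform's table (16545 probe sets with 1 symbol, 370 with several, 15290 unnamed). Of the 115 genes, 11 had 2 probe sets, and 111 matched the dog reference by gene identifier.

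The values were used as deposited. With limma 3.58.1 (R 4.3.3, eBayes, 6 residual and 2.41 prior degrees of freedom), group means were estimated jointly from the 9 arrays. P-values were 2-sided and Benjamini-Hochberg adjusted across the whole table. The fit was tested on simulated data. Named genes are the called members, the member of highest mean and the member of largest difference in each family, and at most 12 called partner genes. Further members were named after their values were seen. Members, lists and alternatives were chosen with earlier results of these data known. The alternatives were other variance moderation, normalization, filters, weights, probe set rules and sets of arrays.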

Additional observations from a re-analysis of the deposited data

How the results depend on the processing

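Across 928 repeats of the 49 called gene comparisons under 19 other settings, 785 kept the call, 143 lost it and 0 changed sign. Several settings leave the difference itself unchanged, so the sign could not change there. Among them are those without variance moderation, with only the 2 groups compared, with the replicate block and without an array of the third group. Without variance moderation 13 of 49 calls were lost, with only the 2 groups compared 13, with the replicate block 8, and without Fibroblast 1 and Brain 3, a setting chosen after seeing the data, 14, the calls of KCNH1 against Fibroblast among them (adjusted p 0.0638 for SKN and 0.0834 for Brain). Quantile normalization lost 1 call and averaging the probe sets of a gene 0. Between SKN and Fibroblast the 5 channel genes called fell to 3 without variance moderation, and the 4 called at least 2-fold to 2. Leaving out 1 array at a time gave 3 to 6 and 2 to 5 there, with the lowest counts (3 and 2) without Fibroblast 3 and without SKN 1. Between Brain and Fibroblast the 26 became 17 to 24, lowest without Fibroblast 3, and between SKN and Brain the 18 became 15 to 21. With the replicate number as a block the counts were 17 for SKN against Brain, 6 for SKN against Fibroblast and 21 for Brain against Fibroblast. Same-numbered arrays deviated together only weakly (correlations of -0.045 to 0.145). With 3 arrays a group and no labels for dog or run, these values cannot tell whether equal numbers mark a shared source. The table gives no detection calls, so how far dim channel genes exceed background was not measured.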

Other observations

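Single arrays stood apart for several channel genes that were called in no comparison. CACNA1E, a neuronal calcium channel pore, read 4.79 in Brain 1 and 3.25 or less in the other 8 arrays. In the same array ELAVL4, an RNA-binding protein of neurons, read 5.83 against 3.00 or less elsewhere, and FGF12, a partner of sodium channels, read 4.48 against 3.21 or less. CACNA1A read 3.50 in Brain 3 against 6.02 or more in the other 8 arrays. RGS5, a pericyte marker, read 6.07 in Brain 3 and 3.13 or less elsewhere. Over the 115 channel genes, the root mean square distance from the mean of the other arrays of its group was 0.556 log2 units for Brain 3 and 0.316 to 0.508 for the other arrays. Over all named genes it was 0.372 for Brain 3, with the highest values in Brain 1 (0.444) and SKN 1 (0.440).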
